A study of Mus musculus with 15 samples.

Results

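The genes described here encode the proteins of the mitochondrial ribosome. They were the protein-coding mouse genes of the GENCODE M21 annotation whose symbols begin with Mrpl or Mrps and a number, and 78 of the 55266 genes with counted transcripts met that rule. By name, 49 belong to the large subunit and 29 to the small subunit. The samples were 15 RNA-seq libraries of NIH3T3 cells, an immortalised mouse fibroblast line, in 5 groups of 3. Messenger RNA was selected on poly-T beads from 1 µg of total RNA, and the cells carried a doxycycline-inducible stable transgene. In 4 groups the transgene was H2A-mCherry, a fluorescent histone fusion that served as the control. These cells were left without PDGF (platelet-derived growth factor, a mitogen that activates mTORC1), or were given PDGF alone, rapamycin and PDGF, or cycloheximide and PDGF. The fifth group expressed H2A-TerminaTOR, a histone fusion built to inhibit mTORC1 in the nucleus, and received cycloheximide and PDGF. Cells were starved before stimulation. Doses, times and the number of clones behind each line were not stated in the labels. Rapamycin inhibits mTORC1 in the whole cell, and cycloheximide blocks protein synthesis by cytosolic ribosomes. Every H2A-TerminaTOR library had cycloheximide, so its matched control was the H2A-mCherry group with cycloheximide and PDGF.

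The mitochondrial ribosome sits in the mitochondrial matrix and makes the few proteins encoded by mitochondrial DNA, all of them core subunits of the respiratory chain and the ATP synthase. Its ribosomal RNAs are transcribed from mitochondrial DNA, whereas its proteins are encoded in the nucleus, made in the cytosol and imported. Many of the proteins descend from bacterial ribosomal proteins and others are found only in mitochondria. mTORC1 is known to promote the translation of mRNAs for nuclear-encoded mitochondrial proteins, among them mitochondrial ribosomal proteins, and NRF1 and the ETS factor GABP are known regulators of many of their promoters.

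Promoters of 4 members whose values are described below are shown because 2 of them carry the ETS core and 2 the NRF1 core close to the transcription start. Each line is the 150 bases before the RefSeq start on build GRCm38.p6, 5′ to 3′ on the gene's strand, with the match in capitals. The lines are Mrpl34 (chr8:71464776-71464925, plus strand, ETS core), Mrps27 (chr13:99344636-99344785, plus strand, ETS core read on the other strand), Mrpl17 (chr7:105811088-105811237, minus strand, NRF1 core) and Mrpl9 (chr3:94443186-94443335, plus strand, NRF1 core).
Mrpl34: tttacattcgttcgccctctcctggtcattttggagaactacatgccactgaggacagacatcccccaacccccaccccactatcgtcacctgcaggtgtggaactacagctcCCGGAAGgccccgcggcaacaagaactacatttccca
Mrps27: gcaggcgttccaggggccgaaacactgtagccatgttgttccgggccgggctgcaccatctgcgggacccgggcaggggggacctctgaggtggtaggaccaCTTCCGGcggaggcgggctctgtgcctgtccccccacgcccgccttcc
Mrpl17: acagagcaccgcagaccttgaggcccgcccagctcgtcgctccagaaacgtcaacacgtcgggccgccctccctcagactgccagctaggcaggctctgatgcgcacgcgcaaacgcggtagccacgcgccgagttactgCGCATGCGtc
Mrpl9: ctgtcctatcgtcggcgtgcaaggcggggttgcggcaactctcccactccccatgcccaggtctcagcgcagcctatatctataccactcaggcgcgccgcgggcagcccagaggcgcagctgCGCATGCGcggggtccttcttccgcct
Over the 250 bases before the start, searched on both strands, the ETS core CCGGAAG was present in 18 of the 69 members with a promoter entry (26.1%) and in 7.83% of all 27025 genes with one. The NRF1 core CGCATGCG was present in 7 members (10.1%), which were Mrpl9, Mrpl10, Mrpl17, Mrpl22, Mrpl32, Mrpl39 and Mrps18b, and in 1.75% of all genes. Mrpl17 and Mrpl22 carried both the ETS core and the NRF1 core in this window. A looser form, CGCANGCG, which includes the NRF1 core, was present in 24.6% of members, Mrps27 among them, and 7.65% of all genes. The E-box CACGTG, a site bound by MYC, was present in 7.25% of members and 6.86% of all genes. These matches describe letters in a window and are not evidence of binding.

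The authors counted reads per transcript, and library totals ran from 3466202 to 6777780 counts. Summed over the transcripts of each gene, the 78 members received 54531 counts in the 15 libraries, and 5 of them (Mrpl45, Mrpl9, Mrpl50, Mrpl39 and Mrps28) held 43.3% of these. Counts on single transcripts of overlapping isoforms depend on the bases that no other transcript shares, so levels are compared between libraries and never between genes. Of the 78 members, 55 had enough reads to be tested, 35 of the large and 20 of the small subunit. The 23 others had a median of 371 bases of their own sequence, against 2398 for those tested. Among them Mrpl53, Mrps23 and Mrps34 had no read in any library, and the other 20 had between 1 and 72 reads in all 15 libraries together, from 1 for Mrpl2 through 2 each for Mrpl14, Mrps12 and Mrps18c to 66 for Mrps21 and 72 for Mrpl20. Mrpl53, Mrps23 and Mrps34 have 95, 156 and 117 bases of their own. For these 23 genes nothing can be said from these counts. Whether their few reads came from low expression or from few bases of their own was not tested. Fibroblast markers summed to between 4641 and 9150 CPM in every library, CPM being counts scaled by TMM to a common library total, and were lowest with rapamycin (4871 ± 203 CPM, SD, n = 3, against 7437 in the PDGF group). Their part in the rapamycin results was not tested. Macrophage markers summed to at most 26.1 CPM with 1 of 7 without a read, epithelial markers to at most 3.88 with 3 of 5 without a read, and endothelial markers to at most 4.39 with 2 of 5 without a read. Because these are bulk libraries, fewer cells and less RNA per cell cannot be told apart.

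For many members the counted reads do not represent the coding mRNA. Of the 55 tested members, 30 had at least 90% of their reads on transcripts annotated as protein coding, 12 had under 10% and 13 lay between. All 1344 reads of Mrps10, a protein of the small subunit head, were on transcripts annotated as retained intron (88.5%) or processed transcript (11.5%), and its coding transcripts have at most 4 bases of their own. All 1241 reads of Mrpl17 were on 1 coding isoform of 7300 nucleotides, and the 1028-nucleotide isoform, with 144 bases of its own, had none. Mrpl34 and Mrps28 each have a single annotated transcript (607 and 783 nucleotides), so their values describe the whole gene. On GRCm38, Mrpl34 lies at chr8:71464959-71465747, Mrps28 at chr3:8802146-8923918, Mrps27 at chr13:99344786-99415562, Mrpl17 at chr7:105803206-105811099, Mrpl50 at chr4:49512596-49521093 and Mrps10 at chr17:47368887-47381417, each value being a sum over the annotated transcripts within the gene.

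**Figure D1:**
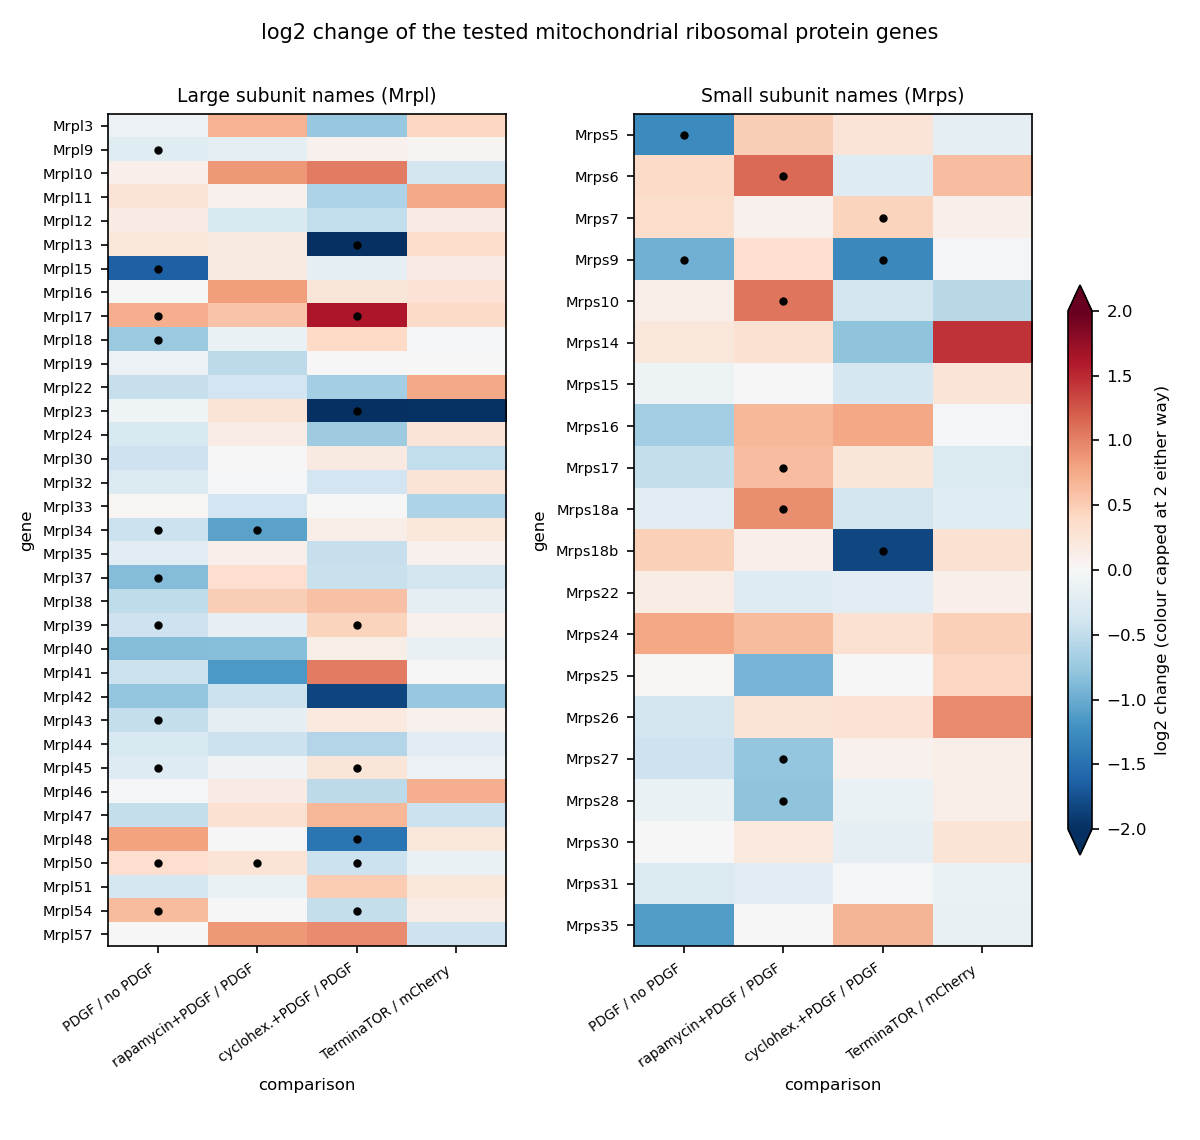
log2 change of the 55 tested members (rows, large subunit names left and small right, colour capped at a log2 change of 2 either way) in 4 comparisons (columns): the PDGF group against the starved group, the rapamycin and the cycloheximide group each against the PDGF group, and H2A-TerminaTOR against H2A-mCherry, both under cycloheximide. Red is higher, blue lower, and dots mark an edgeR adjusted p under 0.05: 13, 8, 11 and 0 members in column order, in a patchwork rather than as a block.

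The mitochondrial ribosomal protein genes did not change as a block in any of the comparisons. Of the 55 tested members, 24 (43.6%) were called in at least 1 of the 4 main comparisons, against 65.4% of all genes. Of these, 17 were called in 1, 6 in 2 and 1 (Mrpl50) in 3. The other 31 were called in none. The 43.6% and 65.4% are not matched for expression level, and shares at a mean log2 CPM of 4 or more are given below. The PDGF libraries entered 3 of these comparisons and the H2A-mCherry cycloheximide libraries 2, so the comparisons are not independent. A gene was called when edgeR's quasi-likelihood test gave a Benjamini-Hochberg adjusted p under 0.05 over all 10603 genes tested. Summed over the 78 members, the level was 880, 884 and 868 CPM without PDGF and 750, 785 and 797 CPM with PDGF. It was 748, 792 and 783 CPM with rapamycin, 768, 819 and 754 CPM with cycloheximide, and 823, 801 and 792 CPM in the H2A-TerminaTOR libraries. The starved libraries were thus above every PDGF library, and the other treatments overlapped the PDGF group or, for H2A-TerminaTOR, their cycloheximide control. The exact two-sided permutation p for the sum was 0.1 for PDGF, the smallest that 3 against 3 allows, 0.7 for rapamycin, 0.9 for cycloheximide and 0.3 for H2A-TerminaTOR. With libraries scaled by total count alone, the sums were 1071, 1041 and 1054 CPM without PDGF, 761, 784 and 815 with PDGF, 708, 737 and 709 with rapamycin and 701, 748 and 703 with cycloheximide, and 778, 745 and 749 in H2A-TerminaTOR cells. Under that scaling the starved libraries were further above the PDGF group, and the rapamycin and cycloheximide groups of H2A-mCherry cells lay below every PDGF library.

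PDGF against no PDGF asks what the growth factor did in starved control cells. Members were lower more often than higher: 10 fell, among them Mrps5, Mrpl15, Mrpl37 and Mrpl18, and 3 rose (Mrpl17, Mrpl54 and Mrpl50). The falls were 1.18-fold to 3.1-fold. Among all genes tested, 37.0% were called, 20.1% higher and 16.9% lower, so the members' 18.2% lower was near the background and their 5.45% higher below it. The median change was -0.23 (log2) over the members and -0.01 over all genes. At a mean log2 CPM of 4 or more, 56.2% of 16 members were called, against 59.2% of all genes at that level. The libraries of the 2 groups did not overlap for 16 of the 55 members (29.1%), against 46.2% of all genes.

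Mrps5, a small subunit protein at the mRNA entry site, measured 14.5, 17.2 and 20 CPM without PDGF and 8.81, 4.91 and 7.66 CPM with it. All starved libraries were above all stimulated ones, and the log2 change was -1.27 ± 0.25 (SE, edgeR adjusted p = 3e-05). Mrpl37, a protein found only in mitochondrial ribosomes, measured 17.1, 24.0 and 19.4 CPM without PDGF and 10.2, 10.1 and 12.6 CPM with it (log2 change -0.86 ± 0.23, edgeR adjusted p = 0.00186). Mrpl18, a protein of the central protuberance where the subunits and tRNAs meet, fell from 24.0, 17.9 and 24.3 CPM to 13.8, 10.1 and 15.5 CPM (-0.74 ± 0.21, edgeR adjusted p = 0.00276). These 3 genes were called under every alternative that could be run, 22 for Mrpl37 and 23 each for Mrps5 and Mrpl18. Of the reads of Mrpl37, 99.0% were on retained-intron transcripts, so its fall does not describe the coding mRNA. Mrpl15, of the large subunit core, measured 7.45, 7.64 and 6.17 CPM without PDGF and 3.58, 0.517 and 2.69 CPM with it (-1.63 ± 0.47, edgeR adjusted p = 0.0038), and 62.8% of its reads were on retained-intron transcripts. Its call was lost without PDGF replicate 2 (edgeR adjusted p = 0.0582) and when only coding transcripts were summed (0.231).

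Mrpl39 measured 48.9, 43.8 and 52.0 CPM without PDGF and 31.1, 39.3 and 37.3 CPM with it, with no overlap (log2 change -0.42 ± 0.13, edgeR adjusted p = 0.00877). Mrpl34, whose bacterial homologue is one of the smallest ribosomal proteins, measured 56.9, 43.8 and 58.3 CPM without PDGF and 33.3, 46.8 and 37.9 CPM with it. One stimulated library exceeded one starved library, and the change was -0.43 ± 0.14 (edgeR adjusted p = 0.00769). Both calls ended without no-PDGF replicate 3 (edgeR adjusted p = 0.0575 for Mrpl39 and 0.064 for Mrpl34) or PDGF replicate 1 (0.0941 and 0.0987). Mrpl43 (-0.47 ± 0.17, edgeR adjusted p = 0.0249) and Mrps9, of the small subunit head (-0.96 ± 0.31, edgeR adjusted p = 0.0102), also fell. The Mrpl43 call was lost without no-PDGF replicate 2 or 3 (edgeR adjusted p = 0.0792 and 0.0516) or PDGF replicate 2 or 3 (0.067 and 0.0975). That of Mrps9 was lost without no-PDGF replicate 2 (edgeR adjusted p = 0.0583) or PDGF replicate 3 (0.079). All reads of Mrps9 were on processed or retained-intron transcripts.

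The 2 members with the most reads changed least among those called. Mrpl45, which anchors the ribosome to the inner membrane beside the tunnel exit, measured 107, 114 and 96.3 CPM without PDGF and 79.3, 95.1 and 90.1 CPM with it (log2 change -0.26 ± 0.10, edgeR adjusted p = 0.0248). Mrpl9 measured 108, 110 and 95.2 CPM without PDGF and 86.2, 89.7 and 89.9 CPM with it (-0.24 ± 0.10, edgeR adjusted p = 0.0472). In both, every starved library was above every stimulated one. The Mrpl45 call ended without PDGF replicate 1 or 3 (edgeR adjusted p = 0.207 and 0.0593) or no-PDGF replicate 1 or 2 (0.0563 and 0.168). The Mrpl9 call was lost in 19 of 23 alternatives, including 14 of the 15 fits with 1 library fewer (all but that without no-PDGF replicate 3), with an edgeR adjusted p of up to 0.204 without no-PDGF replicate 2.

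Of the rises, Mrpl50, a large subunit protein found only in mitochondria, measured 72.3, 60.0 and 63.8 CPM without PDGF and a tight 83.2, 81.9 and 81.2 CPM with it (log2 change 0.33 ± 0.10, edgeR adjusted p = 0.00945). Mrpl54 went from 13.3, 16.4 and 15.5 CPM to 20.1, 22.0 and 27.3 CPM (0.63 ± 0.19, edgeR adjusted p = 0.00602), with the call lost without PDGF replicate 3 (0.0815). The groups overlapped for Mrpl17 (6.54, 5.02 and 4.30 CPM without PDGF, 11.3, 5.17 and 9.74 with it), and its call (0.72 ± 0.27, edgeR adjusted p = 0.0277) was lost without PDGF replicate 1 (0.183) or 3 (0.119), or no-PDGF replicate 2 (0.0589) or 3 (0.109). With libraries scaled by total count alone, the median of all genes shifted to -0.26 in this comparison and the split was 0 rises and 13 falls, so the rises are relative to the TMM scaling. Without PDGF replicate 3 the count of rises was 1, and without PDGF replicate 1 the count of falls was 6.

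**Figure D2:**
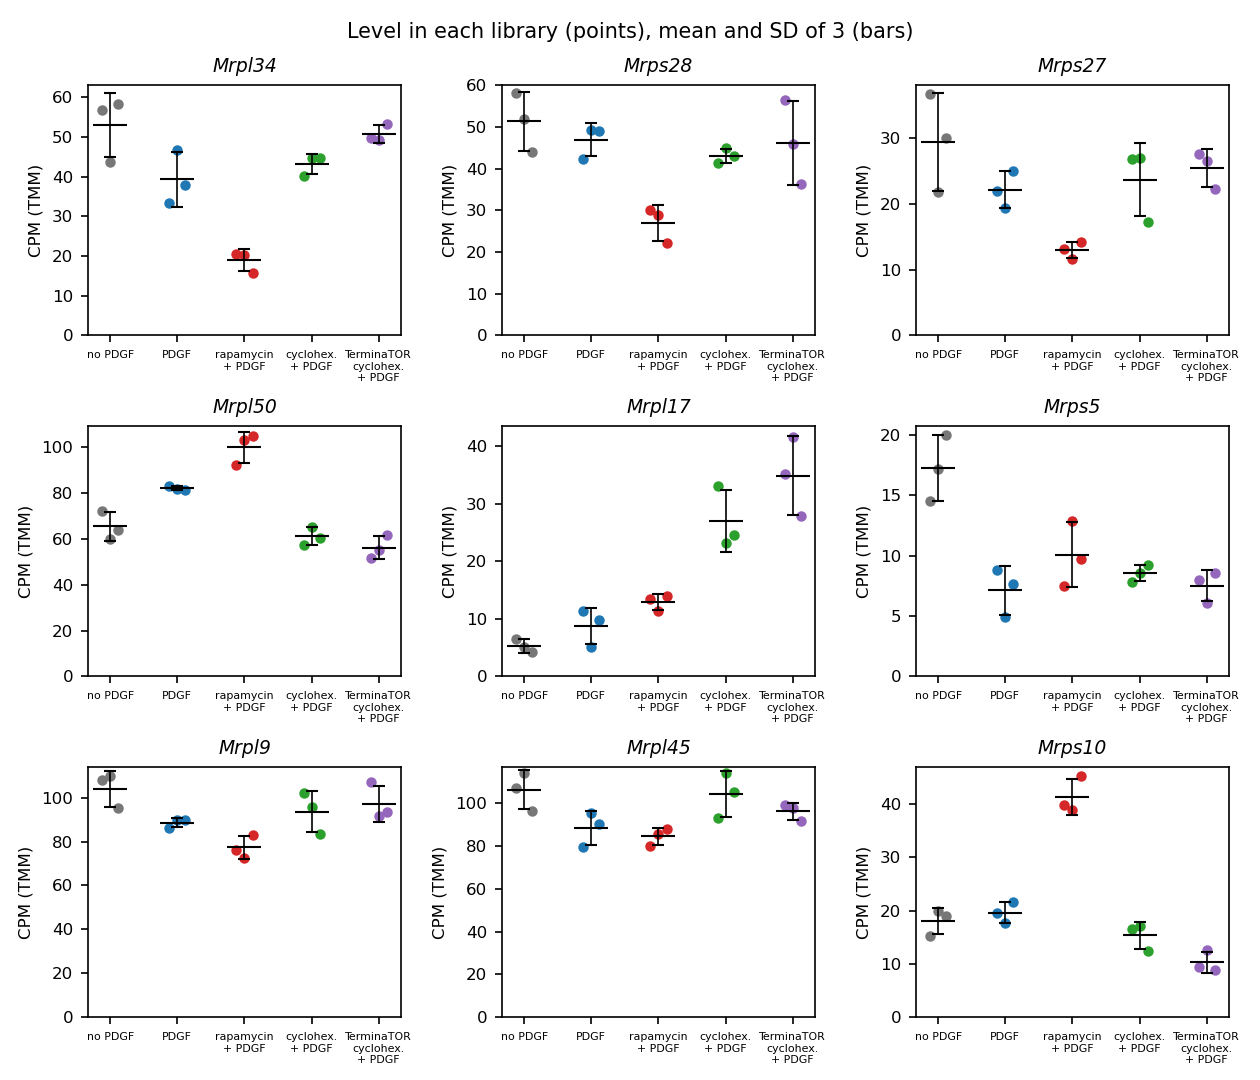
Level in CPM (vertical axes, from 0) of 9 members in each of the 15 libraries (points), with group mean and SD of 3 libraries (bars). Mrpl34, Mrps28 and Mrps27 were lowest in the rapamycin libraries, Mrps10 was highest there, and Mrpl17 was highest in both cycloheximide groups.

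Rapamycin with PDGF against PDGF asks which PDGF-stimulated levels depend on mTORC1. Mrpl34, Mrps28 and Mrps27 fell, by 2.1-fold, 1.75-fold and 1.7-fold, and Mrps6, Mrps10, Mrps18a, Mrps17 and Mrpl50 rose. The remaining 47 tested members did not pass. All genes were called at 32.3% (16.3% higher, 16.1% lower), against 9.09% of members higher and 5.45% lower, both below the shares of all genes. With library-size scaling the split was 3 rises and 5 falls. The median change was 0.09 over members and 0.02 over all genes. Among the 16 members with mean log2 CPM at or above 4, 37.5% were called, against 54.6% of all genes at that level. Libraries did not overlap for 13 members (23.6%, all genes 40.9%).

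Mrpl34 measured 20.6, 20.3 and 15.7 CPM with rapamycin and 33.3, 46.8 and 37.9 CPM with PDGF alone. All 3 rapamycin libraries were below every other library of the series, and the log2 change was -1.07 ± 0.16 (edgeR adjusted p = 5.46e-08). Mrps28, a small subunit protein, measured 30.1, 28.9 and 22.1 CPM with rapamycin and 42.4, 49.4 and 49.1 CPM with PDGF alone. The groups did not overlap, and the change was -0.81 ± 0.15 (edgeR adjusted p = 1e-05). Mrps27, a small subunit protein of the RNA-binding pentatricopeptide repeat family, measured 13.1, 11.7 and 14.3 CPM with rapamycin and 22.0, 19.4 and 25.1 CPM with PDGF alone (-0.77 ± 0.21, edgeR adjusted p = 0.00221), again without overlap. These 3 falls were called in each of the 23 alternatives run. At least 99.8% of the reads of each were on coding transcripts. Against the starved group the same 3 genes were also lower with rapamycin, by -1.5 ± 0.15 for Mrpl34, -0.94 ± 0.15 for Mrps28 and -1.18 ± 0.20 for Mrps27 (log2, edgeR adjusted p = 7.77e-14, 1.02e-07 and 4.08e-07).

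The largest rises were in members whose reads fell outside coding transcripts. Mrps10 measured 39.8, 38.8 and 45.1 CPM with rapamycin and 19.6, 17.6 and 21.5 CPM with PDGF alone, a separation in all libraries (log2 change 1.07 ± 0.18, edgeR adjusted p = 1.09e-06). Mrps6, of the small subunit platform, measured 12.3, 13.2 and 14.5 CPM with rapamycin and 6.88, 4.91 and 6.42 CPM with PDGF alone (1.13 ± 0.32, edgeR adjusted p = 0.00352), and all of its reads were on transcripts of the processed type. Mrps18a, which despite its name is part of the large subunit, measured 13.4, 11.4 and 8.31 CPM with rapamycin and 4.41, 6.46 and 6.21 CPM with PDGF alone (0.93 ± 0.32, edgeR adjusted p = 0.017), with 78.5% of its reads on retained-intron transcripts. The Mrps18a call was lost without PDGF replicate 1 (edgeR adjusted p = 0.0924) or rapamycin replicate 1 (0.105).

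The rises of Mrpl50 and Mrps17 were in coding transcripts and were less stable. Of the 1127 reads of Mrps17, 1105 were on a coding isoform of 5061 nucleotides. Its other coding isoforms, which have no bases of their own, had none. Mrpl50 measured 92.2, 103 and 105 CPM with rapamycin and 83.2, 81.9 and 81.2 CPM with PDGF alone (log2 change 0.28 ± 0.10, edgeR adjusted p = 0.0276), without overlap. Mrps17, of the small subunit body, measured 17.5, 16.9 and 28.5 CPM with rapamycin and 11.6, 13.2 and 16.2 CPM with PDGF alone (0.62 ± 0.21, edgeR adjusted p = 0.0169). Without rapamycin replicate 3 the edgeR adjusted p was 0.355 for Mrps17 and 0.126 for Mrpl50. The Mrpl50 call was also lost without PDGF replicate 1, 2 or 3 (0.0629, 0.0749 and 0.0924) or rapamycin replicate 2 (0.0818), and the Mrps17 call without PDGF replicate 1 (0.0959) or 2 (0.0585). The count of rises was 3 instead of 5 without PDGF replicate 1, PDGF replicate 2 or rapamycin replicate 3.

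**Figure D3:**
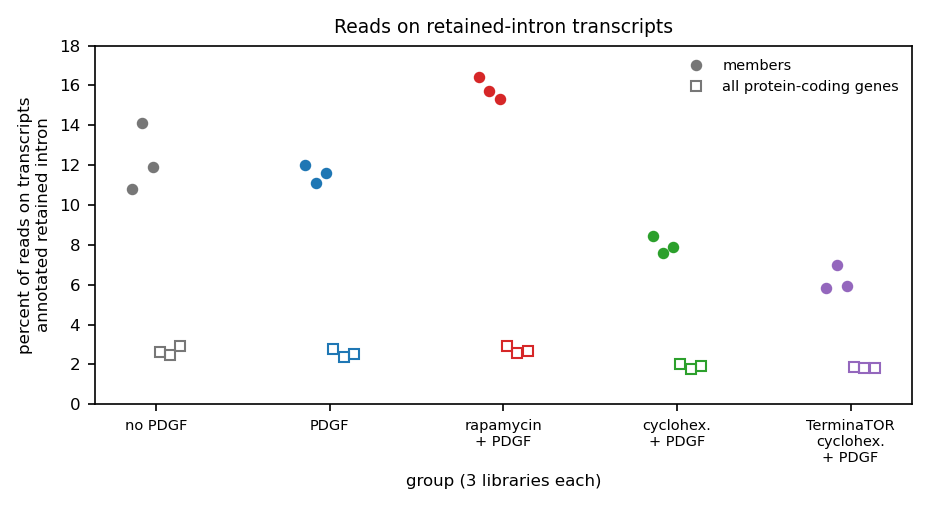
Percent of reads on transcripts annotated as retained intron (vertical axis) in each library, for the 78 members (filled circles) and for all protein-coding genes (open squares), by group of 3 libraries. The members' share was 15.3% to 16.4% with rapamycin, above the 11.1% to 12% with PDGF alone, and 5.85% to 8.43% in the cycloheximide groups; all protein-coding genes lay between 1.76% and 2.91%.

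Reads on retained-intron transcripts made up 10.8%, 14.1% and 11.9% of member reads without PDGF and 12%, 11.1% and 11.6% with PDGF. With rapamycin they made up 16.4%, 15.7% and 15.3%, with cycloheximide 8.43%, 7.57% and 7.90%, and in H2A-TerminaTOR cells 5.85%, 6.99% and 5.93%. Rapamycin libraries were above, and cycloheximide libraries below, all PDGF libraries, and H2A-TerminaTOR libraries were below their cycloheximide controls (exact permutation p = 0.1 for each, the smallest possible). Without Mrps10 the ranges were 9.22% to 9.99% with PDGF and 11.2% to 12.3% with rapamycin. They were 5.63% to 6.60% with cycloheximide and 4.86% to 5.53% in H2A-TerminaTOR cells, still without overlap. With the called members also left out, the mean shares were 20.5% ± 1.26 with PDGF and 22.5% ± 0.898 with rapamycin (SD, n = 3). The means were 17.2% ± 3.08 with cycloheximide and 14.1% ± 1.44 in H2A-TerminaTOR cells. Rapamycin libraries (lowest 21.5%) were then still above all PDGF libraries (highest 21.3%). Cycloheximide libraries overlapped the PDGF group, and H2A-TerminaTOR libraries overlapped their cycloheximide controls. Over all protein-coding genes the mean share was 2.56% with PDGF, 2.71% with rapamycin, 1.90% with cycloheximide and 1.82% with H2A-TerminaTOR. There too the cycloheximide libraries (1.76% to 2.03%) were below all PDGF libraries (2.38% to 2.79%). The rapamycin libraries (2.56% to 2.90%) overlapped the PDGF ones, and the H2A-TerminaTOR libraries (1.80% to 1.85%) overlapped their cycloheximide controls.

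Cycloheximide with PDGF against PDGF asks which stimulated levels depend on new protein synthesis. Mrpl17 rose 3.08-fold, the largest rise of any member, Mrpl39, Mrps7 and Mrpl45 rose by 1.18-fold to 1.37-fold, and 7 members fell (Mrpl23, Mrpl13, Mrps18b, Mrpl48, Mrps9, Mrpl54 and Mrpl50). All genes were called at 40.6% (21% higher, 19.6% lower), against 7.27% of members higher and 12.7% lower. With library-size scaling the split was 1 rise and 11 falls. The median change was -0.03 over members and 0.01 over all genes. At a mean log2 CPM of 4 or more, 37.5% of 16 members were called, against 57.5% of all genes at that level. Libraries did not overlap for 22 members (40.0%, all genes 50.6%).

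Mrpl17, which lines the exit of the tunnel for new proteins, measured 33.1, 23.2 and 24.6 CPM with cycloheximide and 11.3, 5.17 and 9.74 CPM with PDGF alone. The groups were far apart, and the log2 change was 1.62 ± 0.22 (edgeR adjusted p = 5.18e-09), all of it on the long isoform. Against the starved group, at 6.54, 5.02 and 4.30 CPM, the change was 2.34 ± 0.23 (edgeR adjusted p = 5.37e-14). Mrpl39 measured 46.1, 51.7 and 50.3 CPM with cycloheximide and 31.1, 39.3 and 37.3 CPM with PDGF alone (0.45 ± 0.14, edgeR adjusted p = 0.00477), which set it level with the starved libraries (43.8 to 52.0 CPM). Its call was lost without PDGF replicate 1 (edgeR adjusted p = 0.0693). Mrps7, of the small subunit head, measured 34.7, 41.3 and 31.5 CPM with cycloheximide and 27.0, 25.1 and 26.5 CPM with PDGF alone (0.45 ± 0.17, edgeR adjusted p = 0.0254). Mrpl45 overlapped between the groups (92.9, 114 and 105 CPM against 79.3, 95.1 and 90.1 CPM; 0.24 ± 0.10, edgeR adjusted p = 0.0424). Without cycloheximide replicate 2 the edgeR adjusted p was 0.18 for Mrps7 and 0.298 for Mrpl45, and without PDGF replicate 1 it was 0.0591 and 0.318. The Mrps7 call was also lost without PDGF replicate 2 or 3 or cycloheximide replicate 1 (edgeR adjusted p = 0.0908, 0.0598 and 0.0522), and that of Mrpl45 without PDGF replicate 3, cycloheximide replicate 3 or H2A-TerminaTOR replicate 1 or 2 (0.0745, 0.109, 0.0684 and 0.0513). Without PDGF replicate 1 the count of rises was 1, and without PDGF replicate 3 or cycloheximide replicate 2 it was 2.

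Of the 7 falls, Mrpl50 was the best measured. It was at 57.5, 65.3 and 60.5 CPM with cycloheximide, below the 83.2, 81.9 and 81.2 CPM with PDGF alone (log2 change -0.43 ± 0.11, edgeR adjusted p = 0.000645) and overlapping the starved libraries (60.0 to 72.3 CPM). Mrpl54 was at 18.6, 16.6 and 15 CPM against 20.1, 22.0 and 27.3 CPM (-0.48 ± 0.19, edgeR adjusted p = 0.0399), a call lost without PDGF replicate 3 (0.264) and without cycloheximide replicate 2 (0.0688) or 3 (0.156). The other 5 rested on few reads. Mrpl23, beside the tunnel exit, had 5 reads with cycloheximide and 38 with PDGF alone, all of retained-intron type (-3.02 ± 0.76, edgeR adjusted p = 0.000807). Mrpl13 had 6 reads against 31 (-2.46 ± 0.77, edgeR adjusted p = 0.00723, and 0.0898 without PDGF replicate 3). Mrps18b had 20 against 62 (-1.82 ± 0.48, edgeR adjusted p = 0.00122), and Mrps9 was at 2.90, 2.27 and 1.92 CPM against 6.33, 6.46 and 4.76 CPM (-1.29 ± 0.38, edgeR adjusted p = 0.00412). Mrpl48, of the central protuberance, had 28 reads against 69 (-1.46 ± 0.43, edgeR adjusted p = 0.00445), and with coding transcripts alone the edgeR adjusted p was 0.401. Coding transcripts held at most 47.1% of the reads of each of these 5 genes. The 30 members with at least 90% on coding transcripts gave 4 rises and 2 falls with cycloheximide, and the other 25 gave 0 rises and 5 falls.

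**Figure D4:**
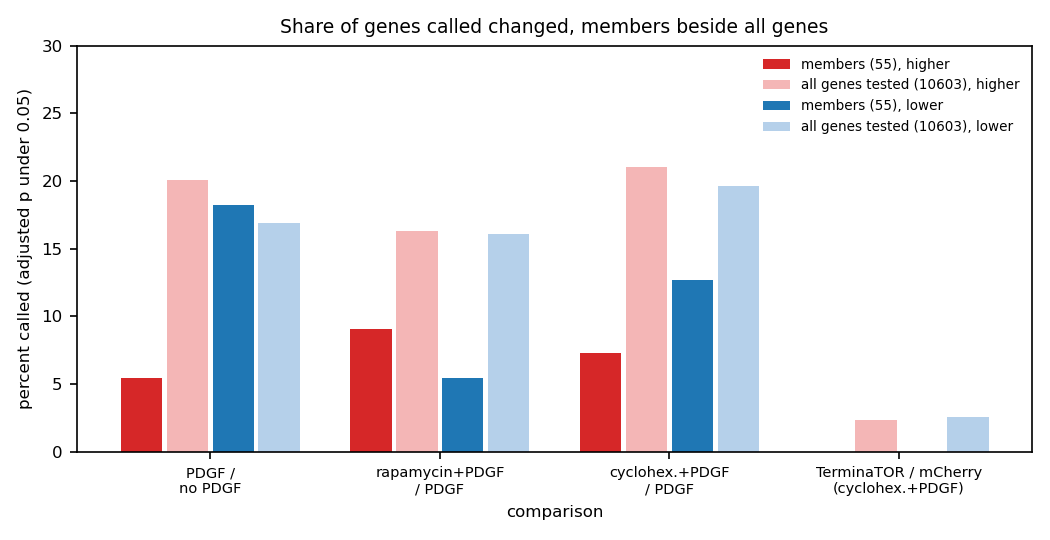
Percent of genes called (edgeR adjusted p under 0.05, vertical axis from 0) in 4 comparisons, for the 55 tested members (dark bars) and all 10603 genes tested (pale bars), higher in red and lower in blue. Members were below all genes in each pair except for falls with PDGF, at 18.2% against 16.9%.

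H2A-TerminaTOR against H2A-mCherry, both with cycloheximide and PDGF, asks what inhibition of nuclear mTORC1 changed. The groups are different transgenic lines, so nuclear inhibition and other differences between the lines cannot be told apart. No member was called by edgeR, against 4.92% of all genes (2.35% higher, 2.57% lower), and DESeq2 and limma-voom likewise called 0. At an unadjusted p under 0.05, edgeR had 4 of the 55 members (7.27%), against 16.4% of all genes. The median change was 0.09 over members and 0 over all genes, with 32 members above 0 and 23 below. Libraries did not overlap for 6 members (10.9%, all genes 23.7%). Among the 16 members with mean log2 CPM at or above 4, 0 were called, against 10.6% of all genes at that level.

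The rapamycin-lowered genes had values near their controls in this comparison. Mrpl34 measured 49.8, 49.3 and 53.4 CPM in H2A-TerminaTOR cells and 40.3, 44.6 and 44.8 CPM in the H2A-mCherry controls, a log2 change of 0.23 with a 95% interval from -0.07 to 0.53. The H2A-TerminaTOR libraries were all above the controls, but the difference did not pass (edgeR adjusted p = 0.406). Mrps28 measured 56.4, 46.0 and 36.3 CPM against 41.4, 44.9 and 43.0 CPM, with overlap (0.13, interval -0.18 to 0.43, edgeR adjusted p = 0.728). Mrps27 measured 27.6, 26.5 and 22.3 CPM against 26.9, 27.0 and 17.3 CPM, also with overlap (0.13, interval -0.28 to 0.53, edgeR adjusted p = 0.806). Mrps10, which rose with rapamycin, measured 9.37, 12.6 and 8.85 CPM against 16.5, 17.1 and 12.5 CPM (-0.56, interval -1.02 to -0.11, edgeR adjusted p = 0.107). Mrpl17 measured 35.1, 41.5 and 27.8 CPM against 33.1, 23.2 and 24.6 CPM (0.38 ± 0.19, edgeR adjusted p = 0.304). For Mrpl9 and Mrpl45 the 95% intervals of the log2 change were -0.15 to 0.27 and -0.32 to 0.10.

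**Figure D5:**
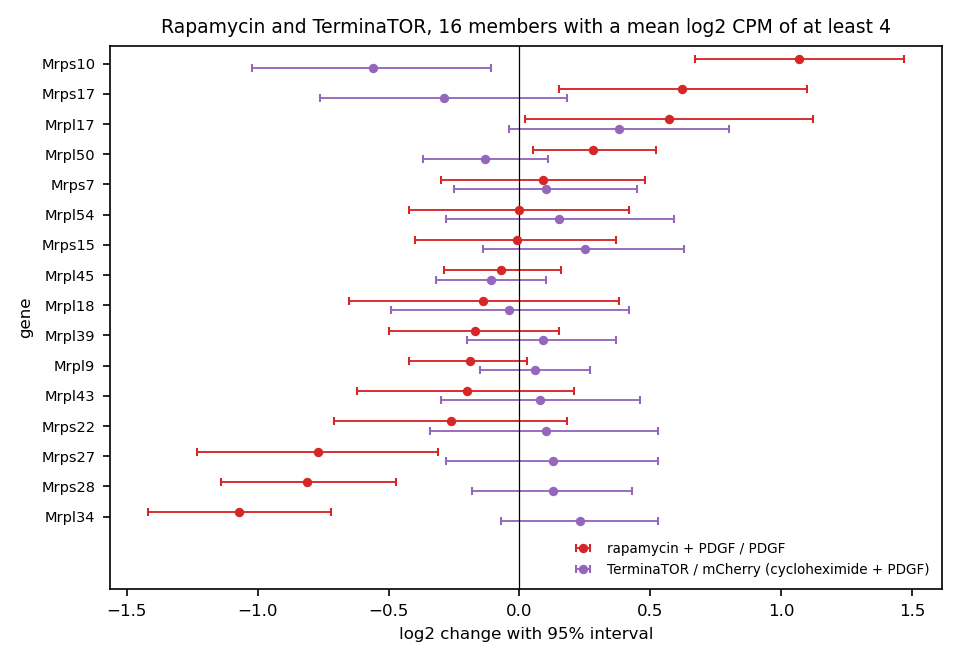
log2 change with 95% interval (horizontal axis) of the 16 members with mean log2 CPM at or above 4 (rows), for rapamycin with PDGF against PDGF (red) and for H2A-TerminaTOR against H2A-mCherry in cycloheximide and PDGF (purple). The intervals of Mrpl34, Mrps28 and Mrps27 lie below 0 for rapamycin and include 0 for H2A-TerminaTOR, and those of Mrps10 lie on opposite sides of 0.

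The difference between the rapamycin change and the H2A-TerminaTOR change was itself tested, and 6 members were called, against 24.0% of all genes (11.6% higher, 12.4% lower). Mrpl34 (-1.30 ± 0.21, edgeR adjusted p = 6.45e-07), Mrps28 (-0.93 ± 0.20, edgeR adjusted p = 0.000222) and Mrps27 (-0.89 ± 0.27, edgeR adjusted p = 0.0105) were lower for rapamycin. Mrps10 (1.64 ± 0.27, edgeR adjusted p = 1.62e-06), Mrps17 (0.92 ± 0.30, edgeR adjusted p = 0.0164) and Mrpl50 (0.41 ± 0.15, edgeR adjusted p = 0.0339) were higher. With library-size scaling the split was 1 higher and 4 lower. The calls for Mrpl34, Mrps28 and Mrps10 held in every alternative run. That of Mrps27 was lost without cycloheximide replicate 3 (edgeR adjusted p = 0.0653), that of Mrps17 without rapamycin replicate 3 (0.169) or PDGF replicate 1 (0.0531), and that of Mrpl50 in 8 of the 15 fits with 1 library fewer (without replicate 2 or 3 of the PDGF, rapamycin or cycloheximide group, or H2A-TerminaTOR replicate 1 or 2), up to 0.115. The rapamycin change was measured within the H2A-mCherry line and without cycloheximide. The H2A-TerminaTOR change was measured between lines and with cycloheximide. The place of inhibition, the line and the presence of cycloheximide therefore cannot be told apart in this difference.

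Against the starved group, rapamycin with PDGF had 8 members higher and 15 lower (all genes 53.3% called, 27.8% higher and 25.5% lower), and cycloheximide with PDGF had 2 higher and 12 lower (all genes 47.4%, 24.6% higher and 22.8% lower). The member medians were -0.13 and -0.28, and those of all genes 0.02 and -0.01. At a mean log2 CPM of 4 or more, 81.2% of members were called for rapamycin, against 74.9% of all genes. For cycloheximide the shares at that level were 18.8% and 63.6%. With library-size scaling the splits were 3 and 21, and 2 and 31. These comparisons share the starved libraries with the PDGF comparison. Without no-PDGF replicate 1 or rapamycin replicate 1 the 8 rises were 5. Mrps7 was higher in both (0.44 ± 0.17 and 0.80 ± 0.17, edgeR adjusted p = 0.029 and 4.49e-05), while Mrps5 (-0.78 ± 0.25 and -1.01 ± 0.24, edgeR adjusted p = 0.00542 and 0.000383) and Mrpl37 (-0.52 ± 0.23 and -1.31 ± 0.24, edgeR adjusted p = 0.0488 and 3.84e-06) were lower in both. For rapamycin, the Mrps7 call was lost without no-PDGF replicate 1 or rapamycin replicate 1 or 2 (edgeR adjusted p = 0.377, 0.0904 and 0.0905), and that of Mrps5 without rapamycin replicate 1 (0.0587). The Mrpl37 call there was lost in 11 of the 15 fits with 1 library fewer, with the highest edgeR adjusted p, 0.224, without no-PDGF replicate 2. Reads of Mrpl37 were 99.0% on retained-intron transcripts.

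The counts by position in the ribosome can be read against the 37.0%, 32.3%, 40.6% and 4.92% of all genes called with PDGF, rapamycin, cycloheximide and H2A-TerminaTOR. The 3 members of the stalk that recruits translation factors were called in none of the comparisons. Mrpl12 measured 8.34 ± 1.15 CPM without PDGF, 9.44 ± 1.10 with PDGF, 7.68 ± 2.41 with rapamycin, 6.68 ± 0.754 with cycloheximide and 7.26 ± 2.33 in H2A-TerminaTOR cells (SD, n = 3). Its PDGF libraries (8.29 to 10.5 CPM) were all above the cycloheximide ones (6.0 to 7.49 CPM), but that difference did not pass (edgeR adjusted p = 0.178). Mrpl10 and Mrpl11 were at 1.14 to 2.59 and 2.62 to 4.27 CPM by group mean. Of the 5 tunnel exit and membrane anchor proteins, 1 rose (Mrpl17) and 1 fell (Mrpl45) with PDGF, none changed with rapamycin, and 2 rose (Mrpl17 and Mrpl45) and 1 fell (Mrpl23) with cycloheximide, while Mrpl22 and Mrpl24 were not called. Of the 6 members of the central protuberance, Mrpl18 fell with PDGF and Mrpl48 with cycloheximide, and Mrpl38, Mrpl40, Mrpl46 and Mrps30, a large subunit protein despite its name, were not called in the 4 main comparisons. Of the 10 tested members of the small subunit head, body and platform list, 3 rose (Mrps6, Mrps10 and Mrps17) and 0 fell with rapamycin, with a median of 0.56 against 0.02 over all genes, and the reads of Mrps6 and Mrps10 were all on non-coding transcripts. By subunit name, the summed level with rapamycin was 254, 261 and 260 CPM for the small and 494, 532 and 523 CPM for the large subunit, against 237, 237 and 248 CPM and 513, 547 and 549 CPM with PDGF alone. The small subunit libraries did not overlap between these groups, and the large subunit libraries did. Without Mrps10, which was left out after its values were seen, the small subunit sums were 214, 222 and 215 CPM with rapamycin and 217, 220 and 226 CPM with PDGF alone, which overlap.

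The RNA partners of these proteins moved under rapamycin. The small ribosomal RNA of the mitochondrion, mt-Rnr1, measured 3557 ± 317 CPM with rapamycin and 1718 ± 91.2 CPM with PDGF alone (SD, n = 3; log2 change 1.05 ± 0.06, edgeR adjusted p = 2.41e-24). The large one, mt-Rnr2, measured 5516 ± 936 CPM and 2992 ± 77.3 CPM (0.88 ± 0.09, edgeR adjusted p = 1.32e-06). Neither was called with PDGF, cycloheximide or H2A-TerminaTOR, where their log2 changes lay between -0.18 and 0.08. These libraries were selected for poly(A), so the values count the RNA that this selection captured. Of the 12 tested mRNAs encoded by mitochondrial DNA, which the ribosome translates, 8 rose and 0 fell with rapamycin (median 0.38), and 0 rose and 7 fell with cycloheximide (median -0.35). An example is mt-Nd4, a subunit of respiratory complex I, at 0.41 ± 0.05 and -0.35 ± 0.05 (edgeR adjusted p = 3.18e-09 and 1.62e-07). Over all genes 16.3% were higher and 16.1% lower with rapamycin, and 40.6% were called with cycloheximide, 19.6% of them all being lower. The rapamycin rise of mt-Nd3 held in 9 of 23 alternatives and that of mt-Atp6 in 17. The other rapamycin rises and the cycloheximide falls of these mRNAs held in all 23. With PDGF 1 fell (mt-Co1, a call that held in 6 of 23 alternatives), and with H2A-TerminaTOR none was called by edgeR. Mitochondrial genes took 11.5% ± 0.56 of all counts without PDGF, 9.03% ± 0.31 with PDGF, 10.5% ± 0.61 with rapamycin, 6.51% ± 0.207 with cycloheximide and 6.52% ± 0.176 in H2A-TerminaTOR cells.

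Genes that serve the ribosome changed in mixed directions. Of 11 tested mitochondrial translation factors, 1 rose and 5 fell with PDGF. Tsfm, the exchange factor of elongation, rose (1.10 ± 0.37, edgeR adjusted p = 0.0139), and Gfm2, which acts in ribosome recycling, fell (-1.22 ± 0.36, edgeR adjusted p = 0.00439), as did Oxa1l, the inner membrane insertase that receives new proteins (-0.72 ± 0.23, edgeR adjusted p = 0.00855). The Tsfm call was lost without no-PDGF replicate 2 or PDGF replicate 1 (edgeR adjusted p = 0.0577 and 0.0605), and those of Gfm2 and Oxa1l without PDGF replicate 3 (0.0516 and 0.075). The calls of Gfm2 and Oxa1l were also lost when only coding transcripts were summed (edgeR adjusted p = 0.128 and 0.174). That of Tsfm was also lost with library-size scaling (edgeR adjusted p = 0.0594). With rapamycin 2 rose and 0 fell, led in reads by Mrrf, the recycling factor (98.0 ± 7.42 CPM against 66.7 ± 5.25 CPM; 0.55 ± 0.11, edgeR adjusted p = 2.18e-05), and with cycloheximide 2 rose and 0 fell. Of 22 tested assembly and rRNA modification genes, 3 rose and 1 fell with PDGF, among them Rpusd3, a pseudouridine synthase homologue (2.66 ± 0.39, edgeR adjusted p = 4.03e-08), and Nsun4, an rRNA methyltransferase (1.81 ± 0.30, edgeR adjusted p = 4.85e-07). With rapamycin 2 rose, including the helicase Ddx28 (0.59 ± 0.13, edgeR adjusted p = 9.53e-05), and Rbfa, a small subunit maturation factor, fell (-0.98 ± 0.26, edgeR adjusted p = 0.00164). With cycloheximide 2 rose and 3 fell, and the fall of Mterf3 among these held in 12 of 22 alternatives. Of 3 tested subunits that do not carry Mrp symbols, Gadd45gip1 fell with PDGF (-1.33 ± 0.41, edgeR adjusted p = 0.00748), and Ptcd3, a pentatricopeptide protein of the small subunit, fell from 22.1 ± 2.59 to 3.19 ± 0.955 CPM with cycloheximide (-2.80 ± 0.26, edgeR adjusted p = 1.07e-14). No gene of these 3 lists was called with H2A-TerminaTOR by edgeR, against 4.92% of all genes.

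Of 11 tested genes for the transcription of mitochondrial DNA and the handling of its RNA, 4 rose and 1 fell with PDGF, 4 rose and 1 fell with rapamycin, and 1 rose and 5 fell with cycloheximide. Over all genes 37.0%, 32.3% and 40.6% were called in these comparisons, and 4.92% with H2A-TerminaTOR. Tfam, which packages mitochondrial DNA and starts its transcription, was at 35.6 ± 3.94 CPM without PDGF, 68.2 ± 2.10 with PDGF, 102 ± 11.7 with rapamycin and 33.2 ± 1.62 with cycloheximide. Its log2 changes were 0.94 ± 0.12, 0.58 ± 0.11 and -1.04 ± 0.12 (edgeR adjusted p = 9.65e-10, 3.02e-05 and 6.72e-11). Tfb2m, the other initiation factor, rose with rapamycin (1.11 ± 0.22, edgeR adjusted p = 4.36e-05). Polg2, the accessory subunit of the mitochondrial DNA polymerase, rose with cycloheximide (3.88 ± 0.27, edgeR adjusted p = 2.02e-20) and was lower with H2A-TerminaTOR (-0.67 ± 0.20, edgeR adjusted p = 0.0276), the 1 call of this list in that comparison. That call was lost without any 1 of the 3 cycloheximide controls (edgeR adjusted p = 0.0887, 0.114 and 0.0782) or without H2A-TerminaTOR replicate 1 or 2 (0.181 and 0.144). Of 9 tested regulators of nuclear genes for mitochondrial proteins, 3 rose with PDGF, 1 fell with rapamycin, 2 fell with cycloheximide, and 1 was higher and 1 lower with H2A-TerminaTOR. Yy1, a zinc finger transcription factor, was the higher one, at 791 ± 8.37 CPM against 670 ± 14.9 CPM (0.24 ± 0.06, edgeR adjusted p = 0.00489, and 0.0534 without cycloheximide replicate 3). Ppargc1a, a coactivator of NRF1, fell from 23 ± 4.30 to 3.76 ± 0.462 CPM with rapamycin (-2.59 ± 0.26, edgeR adjusted p = 1.47e-13) and was lower with H2A-TerminaTOR, at 15.2 ± 0.351 CPM against 25.4 ± 5.94 CPM (-0.74 ± 0.20, edgeR adjusted p = 0.0124). The H2A-TerminaTOR call was lost without cycloheximide replicate 2 or 3 or H2A-TerminaTOR replicate 1 (edgeR adjusted p = 0.137, 0.0698 and 0.0716). Pprc1, a related coactivator, rose with PDGF (2.56 ± 0.52, edgeR adjusted p = 3.39e-05) and fell with cycloheximide (-3.28 ± 0.57, edgeR adjusted p = 2.16e-06). For Polg2, Ptcd3 and Pprc1, 22 alternatives could be run, against 23 for Tfam. The transcript types that held their reads are not given here.

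Members were also split by the motifs in their promoters, and Mrpl17 and Mrpl22 counted in both the ETS and the NRF1 core sets. Of the 13 tested members with the ETS core, 2 fell (Mrpl34 and Mrps27) and 1 rose with rapamycin, and of the 35 tested members with a promoter entry and no ETS core, 0 fell and 4 rose. Over all genes 16.1% were lower and 16.3% higher with rapamycin, so the falls among members with the core (2 of 13) were near the background. The medians were -0.13 and 0.10. Mrps28, which also fell, had no promoter entry. Of the 7 tested members with the NRF1 core, 0 were called with rapamycin (median -0.02), and 2 rose (Mrpl17 and Mrpl39) and 1 fell (Mrps18b) with cycloheximide. None of these counts was tested against chance.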

How the data were processed

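Poly(A)-selected RNA-seq of 15 NIH3T3 libraries (5 groups of 3) was used. The authors deposited 1 whole-number count per transcript and library. Per the submitters' processing notes the tools were HISAT2 2.2.1, HTSeq 0.9.1 and R 4.1.0. Those notes name hg38 although the identifiers are mouse Ensembl transcripts, and the mouse build, the strand setting and the treatment of reads shared by isoforms are not stated in the labels or headers. If shared reads were dropped, a gene's sum would follow the isoforms with bases of their own.

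Of 142446 transcripts, 141536 matched GENCODE M21 (GRCm38), and the 910 others held 0.0309% of the counts. Counts were summed per gene, and 5 pseudogenes or non-coding genes with similar symbols were left out. Reads from retrocopies of the members could not be told apart. Genes were filtered with edgeR's filterByExpr, scaled by TMM, and tested with edgeR's quasi-likelihood test in 1 fit of all 15 libraries, with Benjamini-Hochberg adjustment over all genes. The 95% intervals use 10 residual degrees of freedom and are slightly wider than edgeR's own p would give. The labels do not say that replicates were separate cultures, so p-values measure the spread between these libraries, which may be technical. Replicate libraries differed by more than sampling noise, so each was counted as 1 sample. The fit was tested on simulated counts with known changes.

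Members named were those called at mean log2 CPM 1 or above, up to 8 in each direction, plus the tested stalk, tunnel exit and central protuberance members, and up to 4 called genes per pathway list. Members and lists were chosen with earlier results of these data known. Alternatives were library-size scaling, RLE size factors, DESeq2, limma-voom, no filter, a replicate block, coding transcripts only, only the groups compared, and leaving out each library. Versions were R 4.3.3, edgeR 4.0.16, limma 3.58.1, DESeq2 1.42.0, Python 3.11.15, scipy 1.17.1, pandas 2.3.3 and matplotlib 3.10.9.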

Additional observations from a re-analysis of the deposited data

How the results depend on the processing

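Of 110 alternative counts of called members (without leave-one-out), 95 were within 1.5 times the reported count. With library-size scaling, which moved the median of all genes to -0.26 for PDGF, -0.10 for rapamycin, -0.13 for cycloheximide and, against no PDGF, -0.36 for rapamycin and -0.40 for cycloheximide, PDGF gave 0 rises, rapamycin 3 rises and 5 falls, and cycloheximide 1 rise and 11 falls. Against no PDGF it gave 3 rises for rapamycin and 31 falls for cycloheximide, and the difference between the rapamycin and H2A-TerminaTOR changes gave 1 higher. Member medians less the all-gene median were -0.23, 0.07, -0.04 and 0.09 there for the 4 main comparisons, against -0.23, 0.06, -0.04 and 0.09. With coding transcripts alone, PDGF gave 6 falls, cycloheximide 2 rises and 2 falls, and rapamycin against no PDGF 4 rises. Without a filter, rapamycin gave 2 rises and the difference 1 higher. With only the groups compared, rapamycin against no PDGF gave 5 rises. The cause of these changes was not tested. Yy1, a regulator called higher with PDGF, was at -0.03 (log2) with library-size scaling.

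Leaving out 1 library gave 1 to 3 rises and 6 to 9 falls with PDGF, 3 to 5 and 3 to 3 with rapamycin, 1 to 4 and 5 to 8 with cycloheximide, and 0 to 0 in both directions with H2A-TerminaTOR. Against no PDGF it gave 5 to 9 rises and 12 to 15 falls for rapamycin and 2 to 2 and 9 to 13 for cycloheximide, and the difference gave 2 to 3 in each direction. Same-numbered libraries of different groups correlated between -0.04 and 0.076 over 30 pairs (median 0.008). The 60 other pairs lay between -0.079 and 0.062 (median -0.0035). Correlations this small cannot decide whether the numbers pair the samples. With the replicate block the counts of rises and falls were 3 and 10 for PDGF, 5 and 3 for rapamycin, 4 and 7 for cycloheximide, 0 and 0 for H2A-TerminaTOR, 7 and 14 and 2 and 12 against no PDGF, and 3 and 3 for the difference.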
